A study of Jaculus jaculus and Mus musculus with 24 samples.

Results

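Collagen genes were taken as the features whose mouse transcript identifier was paired with a symbol made of Col, a number, the letter a and a number, such as Col1a1. They were 44 of the 17641 features counted in 24 libraries, and all 44 were among the 14448 genes that passed the filter on low counts, Col6a4 through the mouse foot libraries. By the assemblies that their proteins are known to form they were sorted into 8 classes: 11 fibrillar collagens, 6 basement membrane collagens, 9 FACITs (collagens that sit on the surface of fibrils), 6 beaded filament collagens, 3 network formers, 4 transmembrane collagens, 2 multiplexins and 3 others. Col21a1, a FACIT on the class list, was paired with no feature and was not analysed here. The collectins Colec10, Colec11 and Colec12, the glycosyltransferases Colgalt1 and Colgalt2, the collagen-tailed Colq and the lipid transfer gene Col4a3bp have similar names and did not meet the rule.

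The libraries, all labelled as normal, came from newborn (P0) and 3-day-old (P3) lesser Egyptian jerboas (Jaculus jaculus) and laboratory mice, with 3 libraries in each of 8 groups. In each species and at each age, muscle of the hindfoot, obtained from sections of the foot, was set against a dissected forelimb muscle, the flexor digitorum superficialis, so that tissue and way of sampling cannot be told apart. The jerboa, unlike the mouse, loses its hindfoot muscles after birth, and the series asks which transcripts go with that loss. Strain, sex and the number of animals behind a library were not part of the labels, so each p-value measures the spread between these libraries, which may be technical. Totals were 16.7 to 54.7 M reads per library, and the summed level of 11 skeletal muscle fibre markers was 36235 to 105820 CPM in all libraries. Of these 11 markers 10 were lower in foot than in forelimb in each of the 4 comparisons of limbs, and none was at 0 in any group. In bulk RNA, fewer cells of a type and less RNA per cell cannot be told apart. A level is given in CPM, counts per M reads of the normalised library size, and a change as a log2 fold change of foot over forelimb ± its standard error (SE). A gene is called higher or lower where the adjusted p of edgeR's quasi-likelihood test was under 0.05.

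Collagens are proteins of the extracellular matrix whose chains wind into a triple helix, which needs the regular repeat of residues Gly-X-Y. Fibrillar collagens build the cables of tendon, bone and the connective tissue around muscle fibres, FACITs and small proteoglycans coat those cables, and type IV collagen forms the sheet of the basement membrane around each muscle fibre and blood vessel. Type VI collagen forms beaded filaments that tie the basement membrane to the surrounding matrix, and faults in its genes cause muscular dystrophies.

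The length of the unbroken repeat sets fibrillar collagens apart from type IV in the coding sequence, while the runs of several other classes overlap with those of type IV, and 1 coding exon of each of 6 members around which the results turn is shown for that reason. The sequences are from the mouse GENCODE M21 transcripts (GRCm38), read 5′ to 3′ on the coding strand, and capitals mark the glycine codon of each Gly-X-Y triplet. Col1a1 has a fibrillar exon of 54 bases, chr11:94939904-94939957 on the plus strand.
Col1a1 exon 8: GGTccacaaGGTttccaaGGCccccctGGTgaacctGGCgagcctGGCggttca
Col14a1, a FACIT, has an exon of the same 54-base kind at chr15:55467960-55468013 on the plus strand.
Col14a1 exon 37: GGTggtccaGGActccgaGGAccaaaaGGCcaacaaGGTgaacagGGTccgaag
Col9a3, another FACIT, has the repeat in an exon of 69 bases at chr2:180598866-180598934 on the plus strand.
Col9a3 exon 3: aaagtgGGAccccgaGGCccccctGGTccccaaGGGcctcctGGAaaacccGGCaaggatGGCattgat
Col4a1, the basement membrane collagen with the most reads, carries a break in the repeat within an exon of 84 bases at chr8:11244486-11244569 on the minus strand.
Col4a1 exon 9: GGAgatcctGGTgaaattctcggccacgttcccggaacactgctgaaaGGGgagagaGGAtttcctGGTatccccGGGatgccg
The transmembrane collagens Col13a1, chr10:61908682-61908717 on the minus strand, and Col23a1, chr11:51517206-51517250 on the plus strand, have shorter exons.
Col13a1 exon 5: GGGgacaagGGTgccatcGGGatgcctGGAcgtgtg
Col23a1 exon 3: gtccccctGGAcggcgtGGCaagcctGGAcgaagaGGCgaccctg
In the 54 bases of Col1a1 exon 8 the capitals return in every triplet, whereas the capitals of Col4a1 exon 9 stop after 2 triplets and start again later. Over whole coding sequences, the longest run of Gly-X-Y had a median of 338 triplets in the 11 fibrillar members (216 to 344), and each of them had 2 or 3 runs of at least 5 triplets. In the 6 basement membrane members the longest run had a median of 43.5 triplets and the repeat was cut into 22 to 27 runs. Exons of exactly 54 bases numbered 21 to 33 in fibrillar members, 4 to 28 in FACITs, 1 to 3 in basement membrane members and 0 in the 3 network formers.

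Several members also lie next to each other in the mouse genome. By their annotated gene bounds, Col4a3 and Col4a4 start 72 bases apart on opposite strands of chromosome 1, and Col4a5 and Col4a6 start 1309 bases apart on chromosome X. The genes Col4a1 and Col4a2 overlap at their starts on chromosome 8. Reads were counted by strand, which keeps such pairs apart. Col3a1 and Col5a2 lie tail to tail, 24615 bases apart on chromosome 1.

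Type I and type III transcripts made up most of the collagen signal in all 8 groups. Col1a1, Col1a2 and Col3a1 together held from 56.6% of collagen reads in mouse foot at P0 to 70.7% in jerboa foot at P3. Per kilobase of transcript, a scale available here for mouse only, Col1a1, Col1a2 and Col3a1 were the 3 leading members in each of the 4 mouse groups, with means of 1397 to 2671 CPM per kilobase, and Col4a1, Col6a1 and Col6a2 took the next 3 places. By the mean over the 4 mouse groups, the leading members of the other classes per kilobase were Col12a1 among FACITs, Col8a2 among network formers, Col23a1 among transmembrane collagens, Col15a1 among multiplexins and Col26a1 among the others. In single groups Col14a1 was above Col12a1 in both limbs at P3, Col8a1 above Col8a2 in forelimb at P3, and Col13a1 above Col23a1 in foot at P0.

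The summed level of all 44 genes differed between the limbs in opposite directions at birth. In jerboa it was 81326 ± 3009 CPM in foot and 75143 ± 2377 CPM in forelimb at P0 (SD, n = 3), and 99448 ± 5568 and 78700 ± 4604 CPM at P3. In mouse it was 45004 ± 1490 CPM in foot and 53946 ± 1685 CPM in forelimb at P0, and 57146 ± 5729 and 45918 ± 3779 CPM at P3. Foot over forelimb was thus a ratio of 1.08 in jerboa and 0.834 in mouse at P0, and 1.26 and 1.24 at P3. The libraries of the 2 limbs did not overlap in any of the 4 comparisons, and each two-sided exact permutation test gave p = 0.1, the smallest that 3 against 3 libraries allow. With upper quartile scaling or with reads of either strand the jerboa groups at P0 overlapped (exact p = 0.2 in each). Among the classes, basement membrane collagens took 3.24% ± 0.37 of collagen reads in jerboa foot and 8.76% ± 0.056 in jerboa forelimb at P0, and 2.34% ± 0.096 and 8.29% ± 0.36 at P3. In mouse the same shares were 8.18% ± 0.34 and 9.53% ± 0.56 at P0, and 5.55% ± 0.59 and 9.02% ± 0.53 at P3. FACITs took 7.24% ± 0.39 in jerboa foot and 4.80% ± 0.12 in jerboa forelimb at P0, and 8.33% ± 0.044 and 5.01% ± 0.060 at P3. Their share was higher in mouse foot too, at 5.52% ± 0.11 against 5.10% ± 0.026 at P0, and 5.56% ± 0.20 against 4.51% ± 0.17 at P3.

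**Figure D1:**
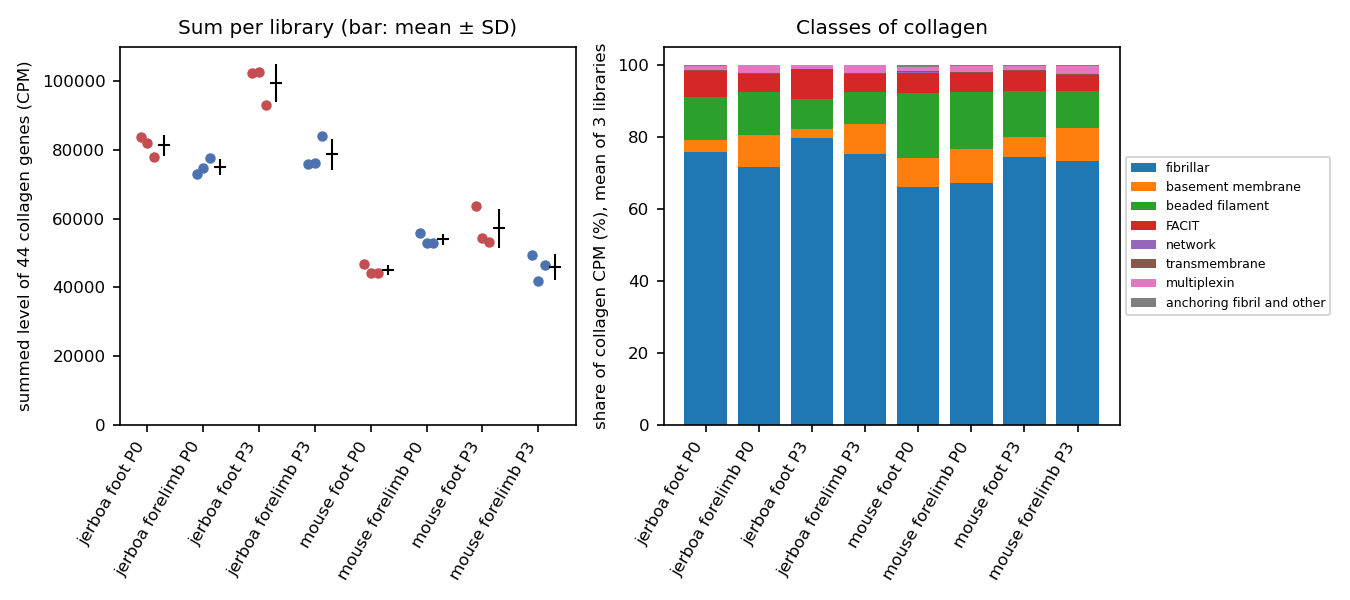
Left, the summed level of 44 collagen genes in CPM for each of 24 libraries (red, foot; blue, forelimb; black, mean ± SD of 3 libraries), with the foot libraries above the forelimb libraries in jerboa at both ages and in mouse at P3, and below them in mouse at P0. Right, the mean share of each class in the collagen reads of each group in percent, where the basement membrane class is 3.24% in jerboa foot and 8.76% in jerboa forelimb at P0.

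Of the 44 members, 19 were called higher in the foot of newborn jerboas than in the forelimb, 15 were called lower and 10 were not called. Of all genes tested, 65.9% were called in that comparison, 31.2% higher and 34.8% lower. In mouse at P0, 13 were higher and 17 lower, where 59.0% of all genes were called, 29.8% higher and 29.3% lower. At P3, 21 were higher and 17 lower in jerboa foot, beside 67.9% of all genes called, 35.9% higher and 32.1% lower. In mouse foot at P3, 26 were higher and 8 lower, beside 52.5% of all genes called, 27.3% higher and 25.3% lower. The median log2 fold change of the members was 0.19 in jerboa and -0.21 in mouse at P0, and 0.15 and 0.52 at P3, where the medians of all genes tested were -0.01, 0.01, 0.04 and 0.03. The libraries of the limbs did not overlap for 37 members in jerboa and 33 in mouse at P0 (66.3% and 61.3% of all genes) and for 37 in each species at P3 (70.9% and 67.9%). Calls of at least 2-fold numbered 7 higher and 8 lower in jerboa and 7 and 1 in mouse at P0 (21.7% and 11.8% of all genes), and 6 and 13 in jerboa and 8 and 3 in mouse at P3 (21.3% and 10.3%). The mouse counts of higher and of non-overlapping members include Col6a4, which passed the filter through the foot libraries where it is high and so supports neither. These values describe the 44 genes and are not a test of them as a group. The same shares of all genes apply to the counts by class, marker list and pathway list for foot against forelimb.

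Col2a1, Col8a2, Col13a1, Col22a1, Col25a1, Col26a1 and Col27a1 were higher in foot in all 4 comparisons, a pattern of 9.26% of all genes tested. Col4a1, Col4a2, Col5a3, Col15a1 and Col18a1 were lower in foot in all 4, a pattern of 10.5% of all genes. The calls of Col4a2, Col5a3 and Col18a1 in mouse at P3 did not hold in every setting, as given with their classes. Within jerboa, 17 members were higher at both ages (24.6% of all genes) and 14 were lower at both (25.7%). Calls in opposite directions in the 2 species were made for Col1a2, Col4a6, Col8a1, Col14a1 and Col16a1 at P0 (7.63% of all genes) and for Col4a5 and Col6a5 at P3 (7.26%). Of these 7 pairs of calls, those of Col8a1 and Col14a1 held in every alternative other than the 2-fold minimum, while the mouse call of Col1a2, Col16a1, Col4a5 and Col6a5 and the jerboa call of Col4a6 were lost without single libraries, as given with their classes.

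**Figure D2:**
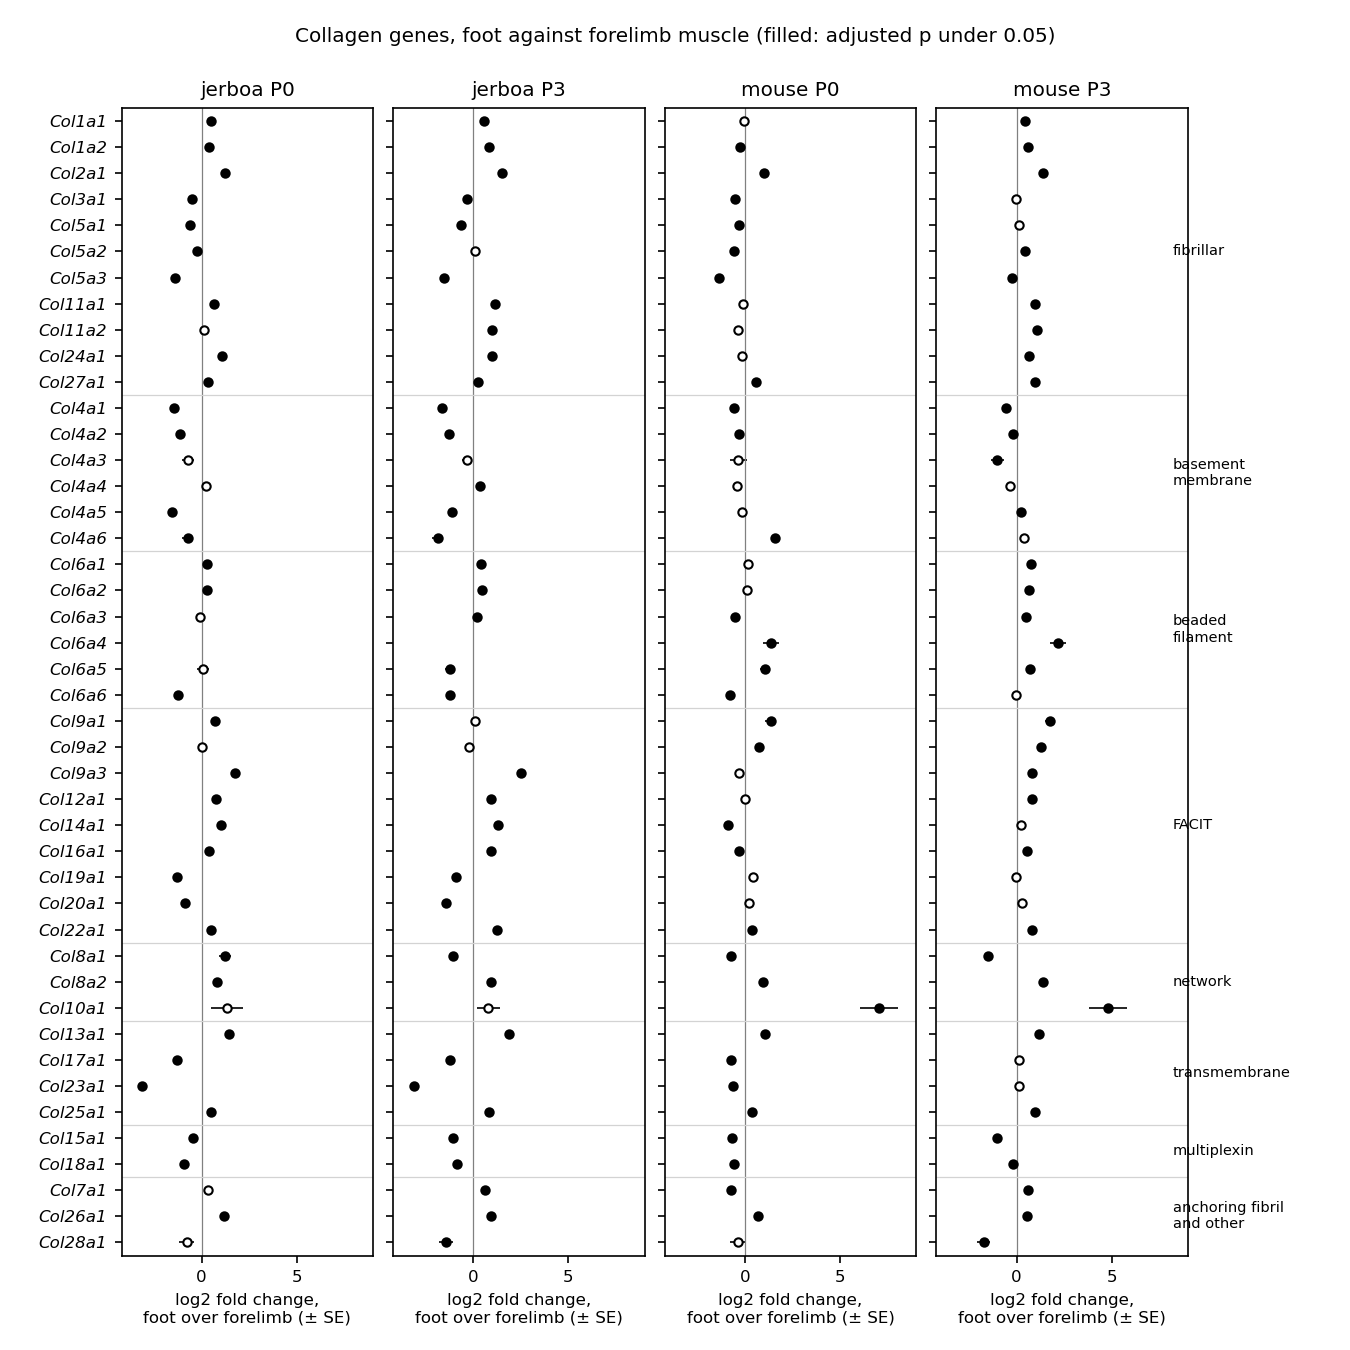
Log2 fold change of foot over forelimb ± SE for the collagen genes by class (rows) in jerboa and mouse at P0 and P3 (panels), with filled points for an adjusted p under 0.05. Col6a4, which had at most 1 read in any jerboa library, is not drawn for jerboa; Col4a1, Col4a2 and both multiplexins lie to the left of 0 in all 4 panels, Col13a1 to the right in all 4.

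Among the fibrillar collagens, the genes of type I were higher in jerboa foot at both ages while that of type III was lower. Of the 11 members, 6 rose and 4 fell in jerboa foot at P0, and 7 rose and 3 fell at P3. In mouse, 2 were higher and 5 lower at P0, and 8 higher and 1 lower at P3. Col3a1 encodes the chain of type III collagen, which forms thin fibrils in muscle, vessels and skin. It was at 9077, 9157 and 9399 CPM in foot and 12787, 12288 and 13740 in forelimb at P0, and 13169, 12686 and 13211 in foot and 15191, 17126 and 17401 in forelimb at P3. In jerboa all foot libraries lay below all forelimb libraries. In mouse, Col3a1 was at 8637, 7679 and 6997 CPM in foot and 11385, 10736 and 10853 in forelimb at P0, and 13231, 11758 and 10811 in foot and 12553, 11604 and 12385 in forelimb at P3. The mouse limbs were apart at P0 and overlapped at P3. Its log2 fold change was -0.49 ± 0.08 and -0.35 ± 0.08 in jerboa (adjusted p = 1.5e-05 and 0.00075), and -0.50 ± 0.08 and -0.03 ± 0.08 in mouse (adjusted p = 1.6e-05 and 0.79). Col1a1 and Col1a2, the chains of type I collagen, rose in jerboa foot by 0.49 ± 0.11 and 0.40 ± 0.10 at P0 and by 0.56 ± 0.11 and 0.81 ± 0.10 at P3. In mouse Col1a1 was at -0.05 ± 0.11 at P0 (adjusted p = 0.73) and 0.47 ± 0.11 at P3. Col1a2 was lower in mouse foot at P0, at -0.27 ± 0.10 (adjusted p = 0.020), a call that was lost without foot replicate 2 or 3 or forelimb replicate 1 (adjusted p up to 0.076). At P3 it was higher, at 0.59 ± 0.10.

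Type V collagen, which starts and limits the growth of type I fibrils, was lower in jerboa foot for Col5a1 and Col5a3 at both ages. Col5a3 had the largest difference of the 3 genes in jerboa at both ages and in mouse at P0. Jerboa libraries held 160.1, 163 and 160.1 CPM in foot and 402, 391 and 467 in forelimb at P0, and 142, 160.3 and 145 in foot and 424, 410.2 and 450.0 in forelimb at P3 of Col5a3. The foot libraries were all below the forelimb libraries, by a log2 of -1.38 ± 0.07 and -1.52 ± 0.07 (adjusted p = 3.0e-14 and 3.1e-15). Mouse libraries held 199, 202 and 202 CPM in foot and 509, 511 and 516 in forelimb at P0, and 299, 281 and 274 in foot and 366, 311 and 318 in forelimb at P3 of Col5a3. The mouse difference was -1.35 ± 0.07 at P0 and -0.22 ± 0.07 at P3 (adjusted p = 1.3e-13 and 0.010), where the call was lost without foot replicate 3 or forelimb replicate 1 (adjusted p up to 0.11). Col5a1 was lower in jerboa foot at both ages, at -0.59 ± 0.08 and -0.64 ± 0.08, and in mouse foot at P0, at -0.33 ± 0.08, with 0.13 ± 0.08 at P3 (adjusted p = 0.16; called higher without forelimb replicate 1). For Col5a2 the jerboa value was -0.25 ± 0.09 at P0 (adjusted p = 0.013; 0.067 without foot replicate 2) and 0.10 ± 0.08 at P3 (adjusted p = 0.30). Col5a2 turned from lower at P0, -0.55 ± 0.09, to higher at P3, 0.45 ± 0.09, in mouse foot.

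Among the fibrillar genes known from cartilage, Col2a1 was higher in foot in all 4 comparisons. This gene, the chain of type II collagen and the main fibrillar collagen of cartilage, was at 842, 803 and 639 CPM in foot and 328, 349 and 299 in forelimb at P0, and 972, 928 and 755 in foot and 278, 284 and 358 in forelimb at P3. Mouse libraries held 141, 132 and 147 CPM in foot and 85.9, 72.8 and 49.6 in forelimb at P0, and 234, 175 and 194 in foot and 93.3, 58.3 and 80.5 in forelimb at P3 of Col2a1. Foot was above forelimb without overlap in all 4 comparisons, with log2 fold changes of 1.23 ± 0.17 and 1.53 ± 0.17 in jerboa and 1.01 ± 0.17 and 1.37 ± 0.17 in mouse (adjusted p from 1.4e-05 to 1.4e-08). Col11a1, a chain of type XI collagen, which also starts fibrils, was at 1636, 1458 and 1373 CPM in foot and 881, 1014 and 910.1 in forelimb at P0, and 2703, 2814 and 2331 in foot and 1114, 1102 and 1276 in forelimb at P3. It was higher in jerboa foot at both ages, by 0.67 ± 0.12 and 1.17 ± 0.12. Mouse libraries held 312, 240.1 and 265 CPM in foot and 322, 288 and 255 in forelimb at P0, and 643, 528 and 542 in foot and 324, 234 and 332 in forelimb at P3 of Col11a1. The mouse limbs overlapped at P0 (-0.08 ± 0.12, adjusted p = 0.58) and were apart at P3 (0.95 ± 0.12, adjusted p = 5.7e-07). Col11a2, its partner chain, was at 697, 564 and 464 CPM in foot and 536, 548 and 508 in forelimb at P0, and 828, 820 and 617 in foot and 389, 326 and 439.8 in forelimb at P3. Jerboa libraries of the 2 limbs overlapped at P0 and not at P3. In mouse, Col11a2 was at 153, 96.7 and 150.3 CPM in foot and 201, 172 and 132 in forelimb at P0, and 377, 314 and 305 in foot and 191, 124 and 155 in forelimb at P3, again with overlap at P0 alone. Its log2 fold change at P3 was 0.97 ± 0.18 in jerboa and 1.08 ± 0.18 in mouse (adjusted p = 3.4e-05 and 1.8e-05). The mouse difference of Col11a2 at P0 was not called, but 1 or more alternatives called it.

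Col24a1 and Col27a1 are fibrillar collagens of developing cartilage and bone. Col24a1 was at 46.5, 39.8 and 54.5 CPM in foot and 22.2, 22.5 and 22.2 in forelimb at P0, and 62.7, 56.7 and 56.8 in foot and 28.04, 31.6 and 29.3 in forelimb at P3. Its foot libraries were above its forelimb libraries at both ages, by 1.07 ± 0.09 and 0.99 ± 0.08 (adjusted p = 6.1e-11 and 1.2e-10). Mouse libraries held 38.3, 39.4 and 40.1 CPM in foot and 43.9, 43.4 and 42.05 in forelimb at P0, and 54.9, 57.9 and 52.5 in foot and 36.4, 32.6 and 37.4 in forelimb at P3 of Col24a1. The mouse value was -0.13 ± 0.08 at P0 (adjusted p = 0.15) and 0.64 ± 0.08 at P3 (adjusted p = 3.4e-07). Col27a1 was higher in foot in all 4 comparisons, by 0.25 to 0.98. Of 11 cartilage markers tested, 5 rose and 3 fell in jerboa foot at P0, 4 and 3 at P3, and 5 and 2, then 6 and 3, in mouse. Their summed level was 88.6 to 109 CPM in jerboa foot and 37.8 to 41.1 CPM in jerboa forelimb at P0, and 122 to 134 against 51.5 to 54.8 CPM at P3. The mouse sums were 74.8 to 101 against 105 to 117 CPM at P0 and 134 to 152 against 118 to 134 CPM at P3. Snorc was at 0 in jerboa forelimb at P3 and mouse forelimb at P0, and Matn1 in mouse forelimb at P3. The part of cartilage RNA in these differences was not tested.

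**Figure D3:**
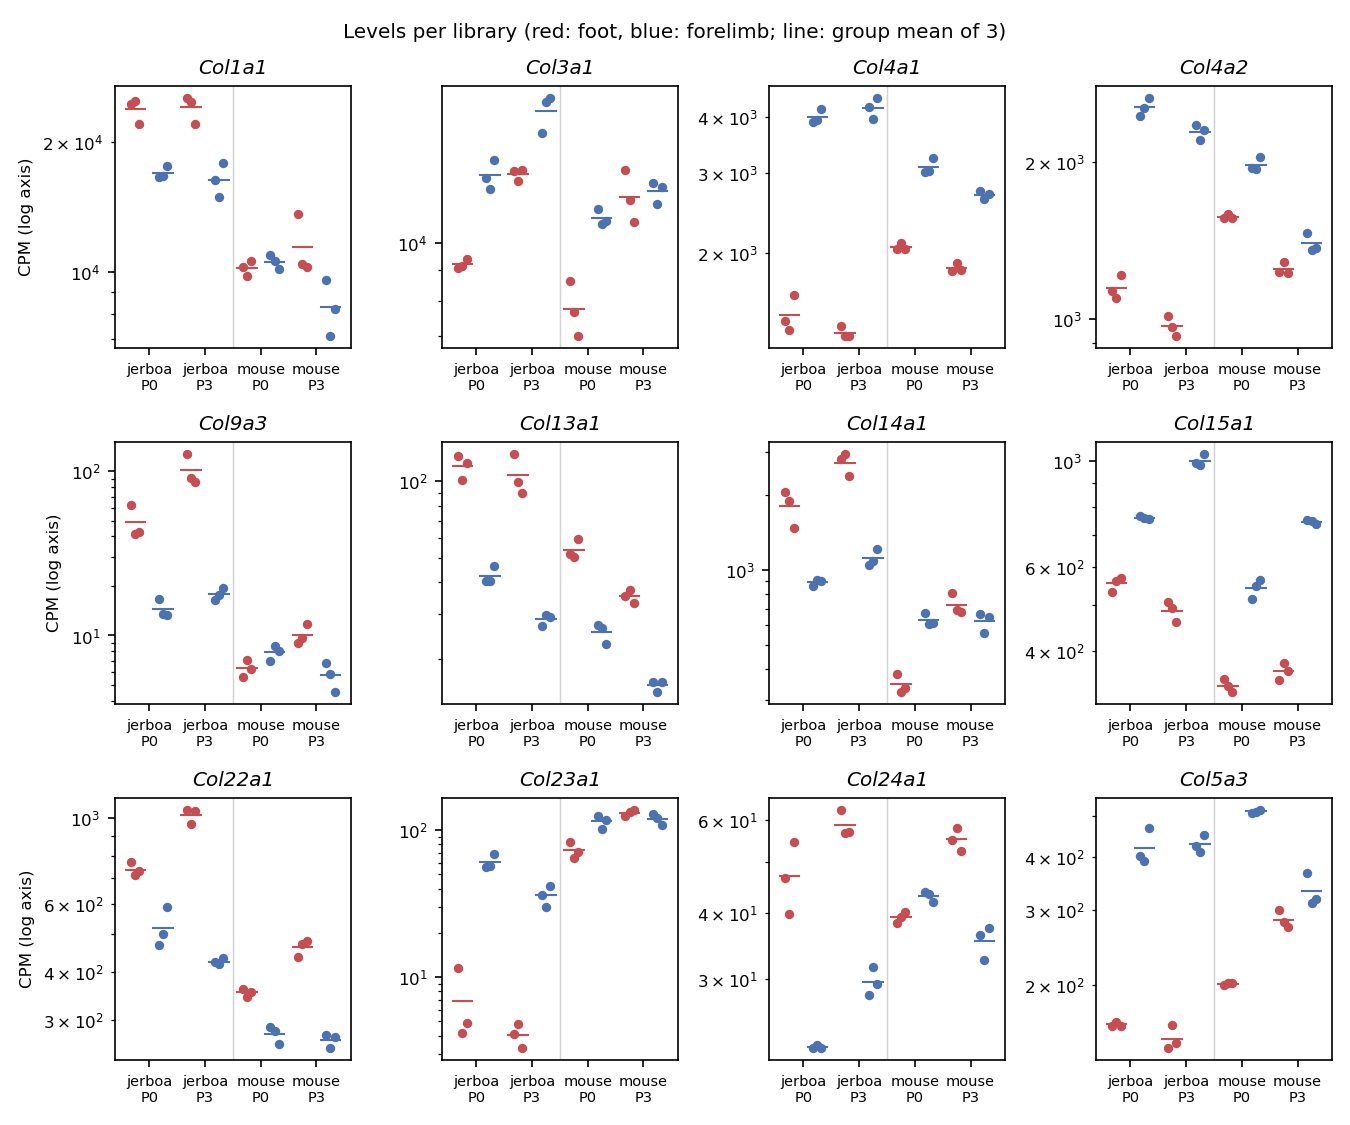
Level of 12 collagen genes in CPM (log axis) in each of 24 libraries, by species and age (red, foot; blue, forelimb; line, mean of 3 libraries). Col4a1, Col4a2 and Col15a1 are lower in foot in every species and age, whereas Col14a1 is higher in foot in jerboa and lower in foot in mouse at P0.

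Of the 6 basement membrane members, 0 rose and 4 fell in jerboa foot at P0, and 1 rose and 4 fell at P3, against 1 higher and 2 lower and then 1 higher and 3 lower in mouse foot. Col4a1 and Col4a2 encode the chains found in nearly all basement membranes. Col4a1 was at 1409, 1350 and 1613 CPM in foot and 3896, 3938 and 4168 in forelimb at P0, and 1376, 1309 and 1308 in foot and 4210.1, 3961 and 4411 in forelimb at P3. All jerboa foot libraries lay below all forelimb libraries, with a log2 fold change of -1.46 ± 0.07 at P0 and -1.66 ± 0.07 at P3 (adjusted p = 5.5e-15 and 3.1e-16). In mouse, Col4a1 was at 2042, 2100.3 and 2038 CPM in foot and 3018, 3044 and 3249.6 in forelimb at P0, and 1823, 1897 and 1834 in foot and 2744, 2627 and 2696 in forelimb at P3. The mouse limbs were apart as well, by -0.59 ± 0.07 and -0.54 ± 0.07 (adjusted p = 4.9e-08 and 3.1e-07). Col4a2 was at 1132, 1095 and 1216 CPM in foot and 2453, 2542 and 2661 in forelimb at P0, and 1015, 963 and 927 in foot and 2360.5, 2204 and 2313 in forelimb at P3. Its jerboa difference was -1.15 ± 0.06 and -1.24 ± 0.06 (adjusted p = 4.8e-14 and 7.6e-15). In mouse, Col4a2 was at 1566, 1589.5 and 1561 CPM in foot and 1949.9, 1943 and 2046 in forelimb at P0, and 1229.5, 1286 and 1224 in foot and 1464, 1359 and 1366 in forelimb at P3. The mouse difference was -0.33 ± 0.06 at P0 (adjusted p = 4.5e-05) and -0.16 ± 0.06 at P3 (adjusted p = 0.026), and the second was lost with upper quartile scaling and without foot replicate 1 or 3 or forelimb replicate 1 (adjusted p up to 0.12).

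The minor type IV chains did not move as a block. Col4a5 and Col4a6 form a type IV network of smooth muscle, kidney and skin. Col4a5 was at 5.09, 3.24 and 3.64 CPM in foot and 11.9, 11.4 and 11.7 in forelimb at P0, and 6.69, 7.04 and 5.63 in foot and 17.1, 12.05 and 13.2 in forelimb at P3. It was lower in jerboa foot without overlap, by -1.54 ± 0.15 and -1.12 ± 0.13 (adjusted p = 1.6e-09 and 2.4e-08). Mouse libraries held 36.2, 46.2 and 42.3 CPM in foot and 45.1, 46.8 and 46.3 in forelimb at P0, and 46.8, 47.2 and 50.04 in foot and 41.03, 39.01 and 40.3 in forelimb at P3 of Col4a5. Its mouse values were -0.15 ± 0.10 (adjusted p = 0.23) and 0.26 ± 0.10 (adjusted p = 0.038), and the call at P3 was lost without any 1 of the 6 libraries (adjusted p up to 0.12). Col4a6 was near the lower end of the range, at 0.572, 0.568 and 0.767 CPM in foot and 0.989, 0.855 and 1.25 in forelimb at P0, and 0.457, 0.362 and 0.149 in foot and 1.26, 1.36 and 1.14 in forelimb at P3. Those jerboa limbs did not overlap, at -0.72 ± 0.29 (adjusted p = 0.030) and -1.87 ± 0.28 (adjusted p = 2.4e-06), but the P0 call was lost without foot replicate 1 or 2 or forelimb replicate 3 (adjusted p up to 0.14). In mouse, Col4a6 was at 3.72, 5.39 and 5.10 CPM in foot and 1.67, 1.55 and 1.57 in forelimb at P0, and 1.94, 2.41 and 1.99 in foot and 1.65, 1.58 and 1.67 in forelimb at P3. It was higher in mouse foot at P0, by 1.57 ± 0.19 (adjusted p = 1.4e-07), and at P3 the value was 0.38 ± 0.19 (adjusted p = 0.099). Col4a3 and Col4a4, the chains of the kidney filter, were low: Col4a3 was under 2 CPM in all 24 libraries, and Col4a4 was at 11.6 to 21.0 CPM in jerboa and 1.13 to 2.12 CPM in mouse libraries. Their calls, Col4a4 higher in jerboa foot at P3 (adjusted p = 0.033) and Col4a3 lower in mouse foot at P3 (adjusted p = 0.023), were each lost without single libraries (adjusted p up to 0.20 and 0.095), namely foot replicate 2 or 3 or forelimb replicate 2 for Col4a4, and foot replicate 1 or forelimb replicate 3 for Col4a3.

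Both multiplexins, collagens of the zone around basement membranes, were lower in foot in all 4 comparisons. Col15a1, which is abundant around muscle fibres and capillaries, was at 531, 562 and 569.5 CPM in foot and 766, 759 and 756 in forelimb at P0, and 506, 491 and 461 in foot and 991, 979 and 1035 in forelimb at P3. In mouse, Col15a1 was at 349, 338 and 328 CPM in foot and 514, 548 and 564 in forelimb at P0, and 348, 377 and 363 in foot and 754, 747 and 737 in forelimb at P3. No foot library reached a forelimb library in either species, and the log2 fold change was -0.46 ± 0.06 and -1.04 ± 0.06 in jerboa and -0.68 ± 0.06 and -1.04 ± 0.06 in mouse (adjusted p from 1.2e-07 to 4.4e-14). Col18a1, the source of the fragment endostatin, was lower by -0.92 ± 0.07 and -0.83 ± 0.07 in jerboa and by -0.59 ± 0.07 and -0.19 ± 0.07 in mouse, where the P3 call (adjusted p = 0.022) was lost with upper quartile scaling and without foot replicate 2 or 3 or forelimb replicate 1 or 3 (adjusted p up to 0.13).

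Markers of blood vessel endothelium, cells that make type IV, type XV and type XVIII collagen, moved in the same direction. All 9 endothelial markers tested were lower in jerboa foot at both ages, with medians of -1.89 and -2.26, and 8 and then 9 of 9 were lower in mouse foot, with medians of -0.70 and -1.11. Their summed level was 187 to 228 CPM in jerboa foot and 732 to 794 CPM in jerboa forelimb at P0, and 213 to 243 against 1026 to 1180 CPM at P3. The mouse sums were 517 to 590 against 910 to 968 CPM at P0 and 550 to 600 against 1142 to 1239 CPM at P3, and no endothelial marker was at 0 in any group. Markers of smooth muscle and pericytes summed to 1608.5 to 1836 CPM in jerboa foot and 1507 to 1636 CPM in jerboa forelimb at P0. At P3 the jerboa sums were 1518 to 1741 against 1712.5 to 1840 CPM. In mouse they were 1537 to 1857 against 1487 to 1581 CPM at P0, and 1421 to 1528 against 1772 to 1858 CPM at P3. These sums overlapped between limbs except in mouse at P3. Muscle fibres carry a basement membrane too, and the fibre markers were lower in foot as given above. The part of any of these cell types in the type IV and multiplexin differences was not tested.

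Of the beaded filament collagens, the main chains of type VI differed by less than 2-fold between limbs in all 4 comparisons, and Col6a6 was lower in jerboa foot by more than 2-fold at both ages. Col6a1, whose chain is part of every type VI filament of the common kind, was at 2750.5, 2831 and 2998 CPM in foot and 2228, 2378 and 2450.5 in forelimb at P0, and 2330.4, 2239 and 2037 in foot and 1798, 1546 and 1714 in forelimb at P3. Foot was above forelimb at both ages, by 0.28 ± 0.07 and 0.39 ± 0.07 (adjusted p = 0.0014 and 4.9e-05). Mouse libraries held 3183, 3167 and 3074 CPM in foot and 2937, 2689 and 2817 in forelimb at P0, and 3008, 2857 and 2729 in foot and 1765, 1547 and 1681 in forelimb at P3 of Col6a1. The mouse value was 0.16 ± 0.07 at P0 (adjusted p = 0.063) and 0.78 ± 0.07 at P3 (adjusted p = 3.3e-09). Under DESeq2 size factors or upper quartile scaling, and in the DESeq2 test, Col6a1 was called higher in mouse foot at P0 too. Col6a2 followed with 0.27 ± 0.08 and 0.45 ± 0.09 in jerboa and 0.66 ± 0.09 in mouse at P3. Col6a3 went from -0.53 ± 0.07 at P0 to 0.49 ± 0.07 at P3 in mouse, with calls in opposite directions. In jerboa Col6a3 was at -0.09 ± 0.07 (adjusted p = 0.32) and 0.19 ± 0.07 (adjusted p = 0.024; up to 0.12 without foot replicate 2 or forelimb replicate 1 or 2).

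Col6a6, a chain of skeletal muscle that can stand in for that of Col6a3, was at 153, 165 and 202 CPM in foot and 352, 435 and 449 in forelimb at P0, and 241, 247 and 217 in foot and 533, 528 and 563 in forelimb at P3. It was lower in jerboa foot without overlap, by -1.25 ± 0.09 and -1.20 ± 0.09 (adjusted p = 1.0e-11 and 1.5e-11). In mouse, Col6a6 was at 257, 242 and 237 CPM in foot and 401, 418 and 439 in forelimb at P0, and 345, 317 and 303 in foot and 332, 335 and 329 in forelimb at P3. The mouse limbs were apart at P0 (-0.78 ± 0.09, adjusted p = 5.9e-08) and overlapped at P3 (-0.04 ± 0.09, adjusted p = 0.69). Col6a5 was at 2.80, 3.12 and 1.41 CPM in foot and 1.36, 2.04 and 3.54 in forelimb at P0, and 2.54, 2.14 and 3.04 in foot and 4.67, 6.31 and 6.94 in forelimb at P3. In mouse, Col6a5 was at 4.10, 5.31 and 6.24 CPM in foot and 2.65, 2.37 and 2.63 in forelimb at P0, and 2.85, 3.82 and 4.63 in foot and 2.16, 2.39 and 2.30 in forelimb at P3. Jerboa limbs overlapped at P0 (0.07 ± 0.30), and mouse foot was higher there (1.03 ± 0.25, adjusted p = 0.0011). Its log2 fold change at P3 was -1.23 ± 0.26 in jerboa and 0.73 ± 0.25 in mouse (adjusted p = 0.00022 and 0.017), and the mouse call was lost without foot replicate 3 or forelimb replicate 1 (adjusted p up to 0.10). Col6a4 had 0 reads in 11 jerboa libraries and 1 read in the other, and 3 to 30 reads in mouse libraries. It was at 0.470 to 0.657 CPM in mouse foot and 0.143 to 0.310 CPM in mouse forelimb at P0, and 0.392 to 0.665 against 0.0613 to 0.166 CPM at P3. It passed the filter through those foot libraries, so its log2 fold changes of 1.37 and 2.19 are given as a description.

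FACITs were mostly higher in jerboa foot, with Col9a3 and Col14a1 in front at P0 and Col9a3, Col14a1 and Col22a1 at P3. Of the 9 members, 6 rose and 2 fell in jerboa foot at P0 and 5 and 2 did at P3, against 3 and 2, then 6 and 0, in mouse foot. Col12a1, which lies on fibrils of tendon, ligament and muscle fascia, was at 2162, 1859.9 and 2199.9 CPM in foot and 1157, 1300.4 and 1163 in forelimb at P0, and 2871, 2904 and 2891 in foot and 1502, 1447 and 1528 in forelimb at P3. The jerboa difference was 0.78 ± 0.09 and 0.95 ± 0.09 (adjusted p = 2.0e-08 and 6.3e-10). Mouse libraries held 1403, 1347 and 1256 CPM in foot and 1336, 1309 and 1353 in forelimb at P0, and 1575, 1350.1 and 1360.2 in foot and 833, 684 and 902 in forelimb at P3 of Col12a1. The mouse limbs overlapped at P0 (0.00 ± 0.09, adjusted p = 0.99) and were apart at P3 (0.83 ± 0.09, adjusted p = 2.5e-08). Col14a1, a close relative of Col12a1 in tendon and skin whose exon is shown above, was at 2069.5, 1893 and 1472 CPM in foot and 862, 915 and 905 in forelimb at P0, and 2793, 2939 and 2386 in foot and 1048, 1087 and 1217 in forelimb at P3. All foot libraries exceeded all forelimb libraries, by 1.02 ± 0.11 and 1.28 ± 0.11 (adjusted p = 7.8e-09 and 1.5e-10). In mouse, Col14a1 was at 381, 322 and 336 CPM in foot and 675, 604 and 612 in forelimb at P0, and 807, 692 and 675 in foot and 663, 559 and 649 in forelimb at P3. Mouse foot was lower at P0, by -0.86 ± 0.11 (adjusted p = 2.0e-07), with no overlap, and at P3 the value was 0.22 ± 0.11 (adjusted p = 0.090), which was called higher with upper quartile scaling or with the libraries compared alone. Col16a1 was higher in jerboa foot at both ages (0.39 ± 0.10 and 0.92 ± 0.10) and in mouse foot at P3 (0.57 ± 0.10). In mouse at P0 it was lower, at -0.29 ± 0.10 (adjusted p = 0.019), a call that was lost without foot replicate 2 or 3 or forelimb replicate 1 (adjusted p up to 0.11).

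The genes of type IX collagen, which coats the type II fibrils of cartilage, did not follow each other. Col9a3 was at 62.5, 41.3 and 42.8 CPM in foot and 16.6, 13.4 and 13.4 in forelimb at P0, and 127, 91.1 and 86.2 in foot and 16.5, 17.5 and 19.4 in forelimb at P3. Its jerboa foot libraries were all above its forelimb libraries, by 1.76 ± 0.17 and 2.51 ± 0.16 (adjusted p = 1.3e-09 and 1.2e-12). In mouse, Col9a3 was at 5.57, 7.09 and 6.28 CPM in foot and 6.97, 8.63 and 8.06 in forelimb at P0, and 8.96, 9.61 and 11.7 in foot and 6.82, 5.85 and 4.52 in forelimb at P3. The mouse limbs overlapped at P0, where the value was -0.31 ± 0.19 (adjusted p = 0.15), and were apart at P3, where it was 0.82 ± 0.17 (adjusted p = 0.00034). Col9a1 was at 14.1, 11.6 and 14.4 CPM in foot and 7.95, 7.14 and 9.38 in forelimb at P0, and 8.71, 9.31 and 5.43 in foot and 5.71, 10.4 and 5.97 in forelimb at P3. The jerboa limbs were apart at P0 (0.71 ± 0.21, adjusted p = 0.0042) and overlapped at P3 (0.10 ± 0.21). In mouse, Col9a1 was at 2.37, 1.75 and 1.81 CPM in foot and 0.835, 0.680 and 0.775 in forelimb at P0, and 2.80, 1.73 and 2.28 in foot and 0.653, 0.768 and 0.557 in forelimb at P3, higher in foot at both ages (1.35 ± 0.29 and 1.77 ± 0.27). Col9a2 was at 105, 83.02 and 63.4 CPM in foot and 77.8, 81.2 and 90.1 in forelimb at P0, and 57.3, 71.8 and 43.1 in foot and 59.6, 84.3 and 59.3 in forelimb at P3. Jerboa limbs overlapped at both ages for Col9a2 and neither difference was called, though 1 or more alternatives called that at P3. In mouse, Col9a2 was at 14.6, 18.5 and 18.8 CPM in foot and 9.35, 10.9 and 11.1 in forelimb at P0, and 8.96, 11.5 and 11.5 in foot and 5.19, 4.84 and 3.41 in forelimb at P3, higher in foot by 0.73 ± 0.19 and 1.27 ± 0.21 (adjusted p = 0.0021 and 1.4e-05).

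Col22a1 marks tissue junctions such as that between muscle and tendon. It was at 770, 710.3 and 728 CPM in foot and 470.1, 499.9 and 588 in forelimb at P0, and 1051, 967 and 1042 in foot and 423, 418 and 433 in forelimb at P3. In mouse, Col22a1 was at 361, 344 and 354 CPM in foot and 287, 281 and 259.5 in forelimb at P0, and 437, 471 and 481 in foot and 274, 253 and 271 in forelimb at P3. Foot was above forelimb without overlap in all 4 comparisons, by 0.50 ± 0.07 and 1.26 ± 0.07 in jerboa and by 0.36 ± 0.07 and 0.80 ± 0.07 in mouse (adjusted p from 0.00012 to 8.8e-14). Col20a1 and Col19a1 are less abundant FACITs that were lower in jerboa foot. Col20a1 was at 15.4, 13.1 and 10.1 CPM in foot and 20.2, 23.9 and 27.1 in forelimb at P0, and 5.51, 6.32 and 4.08 in foot and 13.3, 15.4 and 14.7 in forelimb at P3. Its jerboa difference was -0.88 ± 0.15 and -1.42 ± 0.16 (adjusted p = 1.6e-05 and 3.8e-08). In mouse, Col20a1 was at 61.9, 72.8 and 80.3 CPM in foot and 56.98, 58.8 and 67.7 in forelimb at P0, and 55.3, 56.9 and 58.7 in foot and 54.95, 47.4 and 39.03 in forelimb at P3, and neither difference was called (0.23 ± 0.13 and 0.27 ± 0.13, adjusted p = 0.13 and 0.074). The mouse difference at P0 was called higher without foot replicate 1, and 4 alternatives called that at P3 higher, namely upper quartile scaling, limma voom, the libraries compared alone, and the fit without forelimb replicate 1. Col19a1 was at 2.29, 2.04 and 1.41 CPM in foot and 5.24, 4.01 and 4.62 in forelimb at P0, and 2.15, 3.82 and 1.64 in foot and 5.07, 4.34 and 5.08 in forelimb at P3. Foot libraries lay below forelimb libraries at both ages (-1.26 ± 0.25 and -0.90 ± 0.22, adjusted p = 8.5e-05 and 0.00093). In mouse, Col19a1 was at 5.90, 4.98 and 4.43 CPM in foot and 3.53, 3.54 and 4.32 in forelimb at P0, and 2.91, 2.73 and 4.01 in foot and 3.33, 3.03 and 3.57 in forelimb at P3, with no call at either age (0.42 ± 0.20 and -0.05 ± 0.20), though that at P0 was called higher with the libraries compared alone (adjusted p = 0.049).

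Tendon markers were mostly higher in foot in both species, also in mouse at P0, where neither type I gene was higher. Of 10 tendon markers, 9 were higher in jerboa foot at both ages, and 7 and then 9 in mouse foot, with 0 lower in all 4 comparisons. Their summed level was 5583 to 5806 CPM in jerboa foot and 2533 to 2692 CPM in jerboa forelimb at P0, and 8074 to 9350 against 2842 to 3625 CPM at P3. The mouse sums were 2074 to 2343 against 1263 to 1489 CPM at P0, and 3086 to 3484 against 1490 to 2028 CPM at P3, and no tendon marker was at 0 in any group. Markers of fibro-adipogenic cells, the other main collagen makers of muscle, were lower in part, 6 of 10 in jerboa foot at each age, and 8 and then 6 in mouse foot, with 2, 0, 1 and 2 higher. Their summed level was 494 to 528 against 709 to 824 CPM in jerboa at P0 and 444 to 463 against 841 to 973 CPM at P3, with Ly6a at 0, and 871 to 994 against 1503 to 1660 CPM and 1106 to 1185 against 1771 to 1867 CPM in mouse. The part of the share of tendon or connective tissue cells in the collagen differences was not tested.

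The network formers were at low levels, and their outcomes differed by gene. Col8a2, part of the hexagonal lattice of type VIII collagen, was at 26.1, 25.8 and 29.4 CPM in foot and 15.6, 15.5 and 14.9 in forelimb at P0, and 46.7, 37.01 and 35.1 in foot and 23.2, 18.9 and 20.4 in forelimb at P3. In mouse, Col8a2 was at 44.04, 41.6 and 38.4 CPM in foot and 21.9, 23.1 and 19.6 in forelimb at P0, and 56.7, 48.7 and 52.1 in foot and 20.8, 16.8 and 21.7 in forelimb at P3. Foot exceeded forelimb without overlap in all 4 comparisons, by 0.82 ± 0.11, 0.93 ± 0.11, 0.94 ± 0.11 and 1.41 ± 0.11 for jerboa P0, jerboa P3, mouse P0 and mouse P3. Col8a1, its partner, was at 2.35, 1.36 and 1.47 CPM in foot and 0.806, 0.781 and 0.655 in forelimb at P0, and 2.71, 2.07 and 3.19 in foot and 5.53, 3.94 and 6.72 in forelimb at P3. It was higher in jerboa foot at P0 (1.22 ± 0.32, adjusted p = 0.0015) and lower at P3 (-1.04 ± 0.20, adjusted p = 6.9e-05). In mouse, Col8a1 was at 9.25, 7.31 and 5.57 CPM in foot and 11.4, 11.9 and 12.7 in forelimb at P0, and 9.90, 10.7 and 10.1 in foot and 26.8, 27.4 and 32.9 in forelimb at P3, lower in foot at both ages (-0.71 ± 0.17 and -1.50 ± 0.16). Col10a1, the collagen of cartilage that is about to turn to bone, was at 2.23, 2.16 and 1.28 CPM in foot and 1.03, 0.781 and 0.477 in forelimb at P0, and 5.32, 4.01 and 4.93 in foot and 1.54, 2.44 and 4.26 in forelimb at P3. The jerboa differences were not called (1.34 ± 0.85 and 0.80 ± 0.63, adjusted p = 0.17 and 0.27), though they were with the libraries compared alone. In mouse, Col10a1 was at 19.3, 3.94 and 1.07 CPM in foot and 0.0239, 0.109 and 0.0443 in forelimb at P0, and 4.90, 1.09 and 1.09 in foot and 0.0613, 0.0830 and 0.0898 in forelimb at P3. Mouse foot was far above forelimb, by 7.05 ± 1.01 and 4.80 ± 1.0 (adjusted p = 1.8e-06 and 0.00027), but its foot libraries differed widely among themselves. The mouse forelimb libraries held only 1, 4 and 2 reads of Col10a1 at P0 and 3, 4 and 5 at P3. The size of these differences therefore rests on very few reads. Without foot replicate 1 the values were 5.40 at P0 and 3.73 at P3, and without forelimb replicate 2 the value at P0 was 7.71. Bone markers were summed at 20.4 to 31.8 CPM in mouse foot and 17.5 to 18.5 CPM in mouse forelimb at P0, with 5 of 7 higher in foot, and at 26.5 to 27.3 against 12.8 to 17.3 CPM at P3, with 2 higher and 1 lower, and the part of bone or cartilage RNA in the level of Col10a1 was not tested.

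Col23a1 had the largest difference of any collagen in jerboa. It belongs to the transmembrane collagens, which span the cell membrane and can be shed. Col23a1 was at 11.5, 4.15 and 4.86 CPM in foot and 55.9, 56.5 and 68.3 in forelimb at P0, and 4.08, 4.80 and 3.29 in foot and 36.4, 30.1 and 41.9 in forelimb at P3. All jerboa foot libraries were far below all forelimb libraries, with a log2 fold change of -3.13 ± 0.21 and -3.13 ± 0.21 (adjusted p = 2.5e-12 and 3.0e-12). Foot replicate 1 at P0 was the highest of the foot libraries, and without it the value at P0 was -3.75. Mouse libraries held 83.4, 64.6 and 71.4 CPM in foot and 125, 102 and 116 in forelimb at P0, and 124, 132 and 137 in foot and 128, 121 and 108 in forelimb at P3 of Col23a1. The mouse limbs were apart at P0 (-0.65 ± 0.16, adjusted p = 0.0013) and overlapped at P3 (0.14 ± 0.16, adjusted p = 0.48). Col17a1, a collagen of the hemidesmosomes that hold the epidermis, was at 14.8, 10.7 and 14.8 CPM in foot and 34.3, 31.7 and 33.8 in forelimb at P0, and 7.40, 7.20 and 7.27 in foot and 19.3, 15.6 and 16.4 in forelimb at P3. It was lower in jerboa foot, by -1.31 ± 0.16 and -1.23 ± 0.17 (adjusted p = 1.1e-07 and 4.7e-07). In mouse, Col17a1 was at 6.02, 4.82 and 5.57 CPM in foot and 6.66, 12.5 and 7.55 in forelimb at P0, and 5.81, 6.35 and 5.87 in foot and 6.07, 4.80 and 5.48 in forelimb at P3, lower in foot at P0 (-0.70 ± 0.17, adjusted p = 0.0011) and with overlap at P3 (0.14 ± 0.17). Of 8 keratinocyte markers tested, 3 rose and 0 fell in jerboa foot at P0, and 4 and 0 at P3. Their summed level was 22.8 to 33.3 CPM in jerboa foot and 9.27 to 9.85 CPM in jerboa forelimb at P0, and 20.1 to 23.1 against 6.30 to 7.30 CPM at P3. The mouse sums were 16.8 to 18.6 against 12.6 to 13.3 CPM at P0 and 13.4 to 14.1 against 12.4 to 14.6 CPM at P3. Dsg3 was at 0 in all mouse groups and Lor in jerboa forelimb at P3. The part of epidermal RNA in the level of Col17a1 was not tested.

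Both transmembrane collagens of the nerve to muscle contact were higher in foot. Col13a1, which is needed for the neuromuscular junction to mature, was at 125, 101 and 118 CPM in foot and 40.7, 40.4 and 46.4 in forelimb at P0, and 128, 99.4 and 89.8 in foot and 26.9, 29.8 and 29.3 in forelimb at P3. In mouse, Col13a1 was at 51.8, 50.2 and 59.1 CPM in foot and 27.2, 26.5 and 22.96 in forelimb at P0, and 35.3, 37.4 and 33.2 in foot and 16.3, 14.8 and 16.3 in forelimb at P3. Every foot library exceeded every forelimb library of its species and age, by 1.43 ± 0.11 and 1.89 ± 0.11 in jerboa and by 1.07 ± 0.11 and 1.16 ± 0.11 in mouse (adjusted p from 5.9e-09 to 1.1e-13). Col25a1, which motor axons need to enter muscle, was higher in foot by 0.47 ± 0.11 and 0.86 ± 0.10 in jerboa and by 0.37 ± 0.10 and 0.96 ± 0.10 in mouse.

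In the last class, Col26a1, a secreted collagen first found in testis and ovary, was at 133, 164 and 124 CPM in foot and 59.7, 58.4 and 64.5 in forelimb at P0, and 62.5, 61.1 and 57.2 in foot and 36.5, 26.2 and 30.7 in forelimb at P3. In mouse, Col26a1 was at 189, 190 and 189 CPM in foot and 121, 115 and 113 in forelimb at P0, and 109, 119.6 and 112 in foot and 79.2, 73.4 and 80.1 in forelimb at P3. Foot was higher without overlap in all 4 comparisons, by 1.20 ± 0.09 and 0.95 ± 0.10 in jerboa and 0.70 ± 0.09 and 0.55 ± 0.09 in mouse. Col7a1, the collagen of the anchoring fibrils under the epidermis, was at 17.00, 15.9 and 10.5 CPM in foot and 10.7, 10.3 and 13.7 in forelimb at P0, and 10.4, 8.19 and 8.66 in foot and 5.25, 6.72 and 5.65 in forelimb at P3. The jerboa limbs overlapped at P0 (0.33 ± 0.15, adjusted p = 0.067) and were apart at P3 (0.63 ± 0.16, adjusted p = 0.0015). The P0 difference of Col7a1 was called higher without foot replicate 3 or forelimb replicate 3 and with DESeq2 size factors or the DESeq2 test. In mouse, Col7a1 was at 25.8, 19.2 and 23.5 CPM in foot and 34.2, 37.1 and 42.1 in forelimb at P0, and 33.7, 32.2 and 28.3 in foot and 21.9, 20.3 and 19.4 in forelimb at P3, lower in foot at P0 (-0.73 ± 0.14) and higher at P3 (0.61 ± 0.14). Col28a1, a collagen of peripheral nerve, was at 5.78, 5.85 and 2.68 CPM in foot and 7.73, 8.99 and 8.16 in forelimb at P0, and 3.59, 4.05 and 3.64 in foot and 6.23, 16.8 and 7.80 in forelimb at P3. In mouse, Col28a1 was at 0.564, 3.17 and 1.88 CPM in foot and 2.17, 2.83 and 2.61 in forelimb at P0, and 3.04, 3.55 and 3.77 in foot and 11.7, 7.04 and 15.5 in forelimb at P3. It was lower in foot at P3 in both species (-1.44 ± 0.36 and -1.72 ± 0.34, adjusted p = 0.0010 and 0.00015). At P0 Col28a1 was called in neither species (-0.79 in jerboa, without overlap, and -0.38 in mouse), though 1 or more alternatives called it in jerboa. Schwann cell markers were lower in foot at P3, 8 of 10 in jerboa with 1 higher, and 6 of 10 in mouse with 3 higher. Their summed levels at P3 were 127 to 167 against 241 to 405 CPM in jerboa and 210 to 271 against 740 to 777 CPM in mouse. At P0 the sums were 151 to 176 against 205 to 217 CPM in jerboa. Mouse foot was the higher limb at P0, at 234 to 276 against 163 to 214 CPM. The part of Schwann cells in the Col28a1 differences was not tested.

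The difference between species, jerboa foot over forelimb minus mouse foot over forelimb, compares changes and not levels, so that gene length and mapping within a genome drop out. At P0, 16 members were higher and 13 lower on this scale, beside 48.6% of all genes called, 21.6% higher and 26.9% lower. With upper quartile scaling 12 were higher and 15 lower. At P3, 7 were higher and 22 lower, beside 49.0% of all genes called, 24.1% higher and 24.9% lower. Calls of at least 2-fold numbered 5 higher and 6 lower at P0 (15.3% of all genes) and 2 higher and 13 lower at P3 (16.2%). The median over the members was 0.06 at P0 and -0.31 at P3, where that of all genes was -0.05 and 0.02. Of the 29 calls at each age, 22 held in every alternative other than the 2-fold minimum. Leaving out a single library was enough to lose those of Col4a4, Col5a2, Col6a5, Col9a2, Col13a1, Col15a1 and Col17a1 at P0 and of Col3a1, Col4a4, Col5a2, Col6a3, Col10a1, Col19a1 and Col26a1 at P3. By class, 5 of 11 fibrillar members were higher and 0 lower at P0, whereas 1 was higher and 5 were lower at P3. Basement membrane members were 1 higher and 4 lower at both ages.

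On the side of jerboa foot, Col9a3 stood first at P0, at 2.07 ± 0.25, followed by Col8a1 at 1.93 ± 0.36, Col14a1 at 1.88 ± 0.15, Col24a1 at 1.21 ± 0.12 and Col7a1 at 1.06 ± 0.21 (adjusted p from 0.00016 to 5.6e-10). At P3, Col9a3 was at 1.69 ± 0.24, Col14a1 at 1.06 ± 0.15 and Col24a1 at 0.35 ± 0.11 (adjusted p = 1.9e-06, 2.4e-06 and 0.013). Col8a1 and Col7a1 were not called at P3 (0.46 ± 0.26 and 0.02 ± 0.21, adjusted p = 0.14 and 0.96), Col8a1 being called without forelimb replicate 3 of jerboa. Col1a1 and Col1a2 were higher at P0 (0.54 ± 0.15 and 0.67 ± 0.14, adjusted p = 0.0046 and 0.00029) and not called at P3 (0.09 ± 0.15 and 0.23 ± 0.14, adjusted p = 0.64 and 0.19).

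On the other side, Col4a1 and Col4a2 fell further in jerboa foot than in mouse foot at both ages. Col4a1 was at -0.87 ± 0.09 and -1.12 ± 0.09 (adjusted p = 6.6e-08 and 7.0e-10) and Col4a2 at -0.82 ± 0.09 and -1.08 ± 0.09 (adjusted p = 3.6e-08 and 2.5e-10). Col23a1 was at -2.49 ± 0.27 and -3.27 ± 0.27 (adjusted p = 5.0e-08 and 4.1e-10), and at -3.10 at P0 without jerboa foot replicate 1. Col10a1 had the lowest values among the members called, -5.71 ± 1.49 and -4.00 ± 1.25 (adjusted p = 0.0027 and 0.010), and without mouse foot replicate 1 they were -4.06 at P0 and -2.93 at P3, where the call was lost (adjusted p = 0.050; 0.070 in limma voom). The mouse forelimb libraries held only 1 to 5 reads of Col10a1 each. Col4a5, Col4a6 and Col20a1 were lower by more than 2-fold at both ages, Col4a5 at -1.40 ± 0.18 and -1.38 ± 0.16, Col4a6 at -2.29 ± 0.34 and -2.24 ± 0.34 and Col20a1 at -1.11 ± 0.20 and -1.70 ± 0.21. Col5a3 was at -0.03 ± 0.10 at P0 (adjusted p = 0.81), where both species had it lower in foot, and at -1.30 ± 0.10 at P3 (adjusted p = 1.3e-10). Col6a6 was at -0.47 ± 0.13 and -1.16 ± 0.12, and Col15a1 at 0.22 ± 0.08 at P0 (adjusted p = 0.022; up to 0.061 without mouse foot or forelimb replicate 3, and lost with upper quartile scaling) and -0.00 ± 0.08 at P3. All 9 endothelial markers were lower on this scale at both ages, with medians of -1.09 and -0.91. Of 11 muscle fibre markers, 1 was higher and 3 lower at P0 (median -0.04), and 0 were higher and 7 lower at P3 (median -0.45). The type IV genes Col4a1, Col4a2, Col4a5 and Col4a6 were lower too. Col4a4 was called higher, at 0.66 and 0.74, with both calls lost without single libraries. The part of endothelium or muscle fibres in these differences was not tested.

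**Figure D4:**
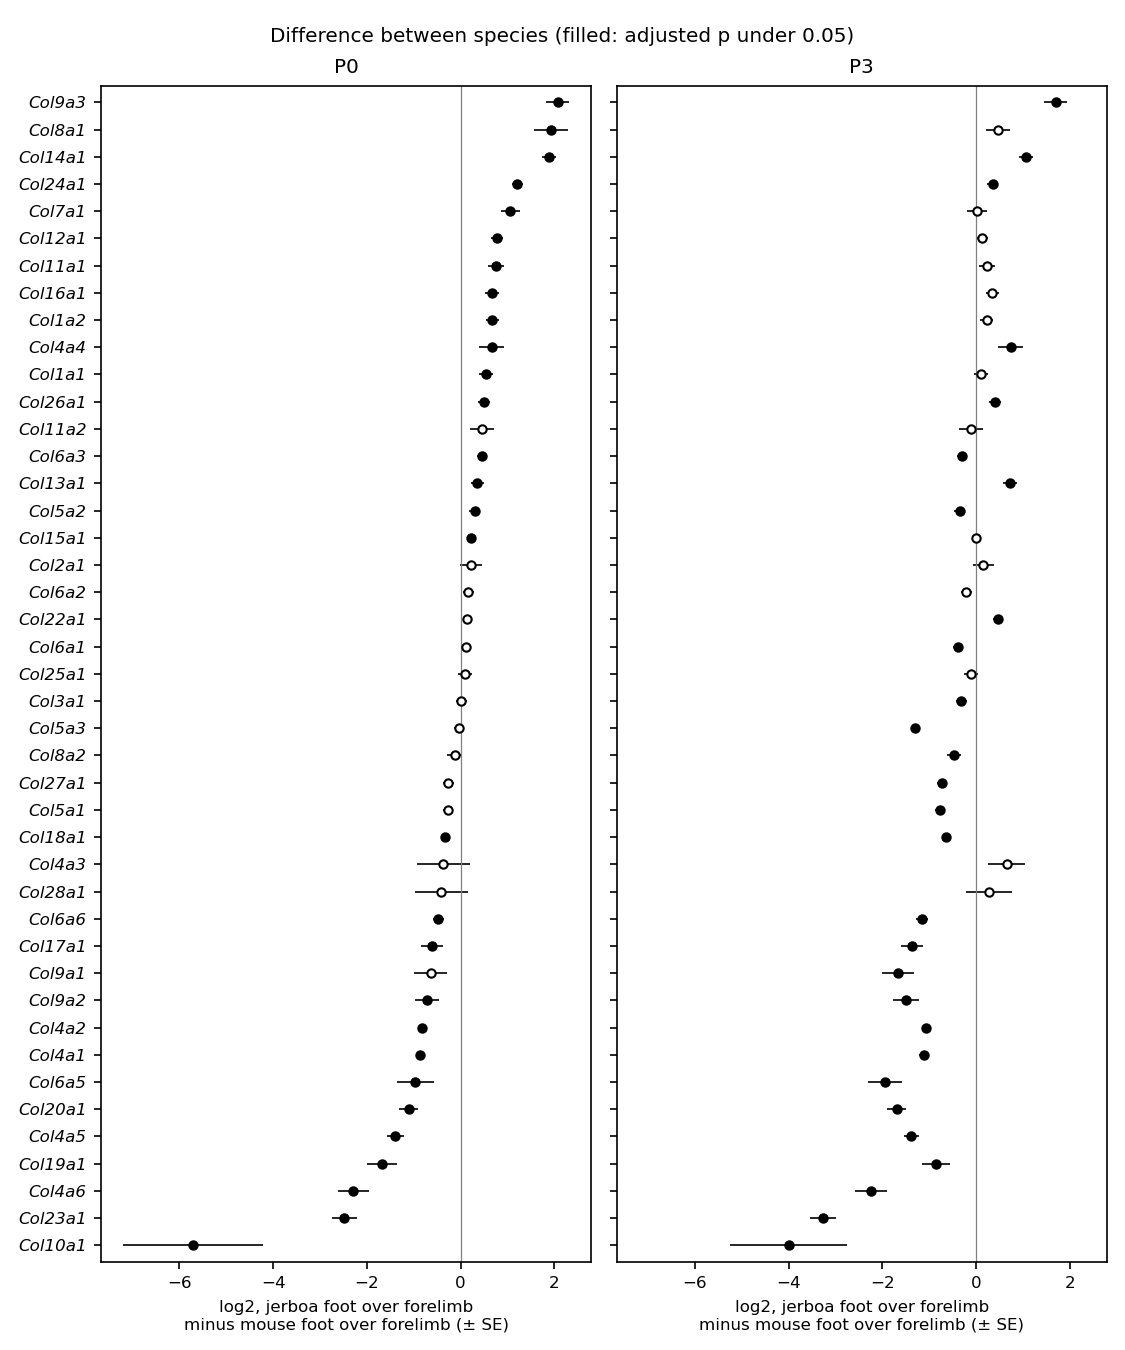
Difference between species in the log2 fold change of foot over forelimb (jerboa minus mouse) ± SE for 43 collagen genes at P0 and P3, in the order of the P0 values, with filled points for an adjusted p under 0.05. Col9a3 and Col14a1 lie to the right at both ages and Col23a1, Col4a6, Col4a5, Col4a2 and Col4a1 to the left; Col6a4, at 0 reads in nearly all jerboa libraries, is not drawn.

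With age, most members that changed in mouse forelimb fell. The labels describe the reads of P0 as trimmed and those of P3 as raw, so age and the handling of reads cannot be told apart within a tissue. From P0 to P3, 4 members were higher and 23 lower in mouse forelimb (51.4% of all genes were called, 26.0% higher and 25.4% lower) and 17 higher and 11 lower in mouse foot (57.6% called, 29.1% higher and 28.5% lower). In jerboa, 15 were higher and 14 lower in foot (47.3% called, 27.0% higher and 20.3% lower) and 12 and 14 in forelimb (43.2% called, 22.5% higher and 20.6% lower). Col6a3 was at -1.15 ± 0.08 in mouse forelimb (adjusted p = 1.3e-11), beside -0.12 ± 0.07 in mouse foot. Col1a2 rose in foot of both species, by 0.64 ± 0.10 in jerboa and 0.93 ± 0.10 in mouse, and was at 0.22 ± 0.10 and 0.07 ± 0.10 in forelimb, where it was not called. In jerboa forelimb 1 or more alternatives called it higher. Col26a1 and Col27a1 fell in all 4 tissues, Col26a1 by 0.59 to 1.22 and Col27a1 by 0.82 to 1.23 on the log2 scale.

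The limbs of an age share their handling of reads, so the change with age was also compared between them. In mouse, foot minus forelimb in the change from P0 to P3 was higher in 26 members and lower in 3, beside 31.5% of all genes called, 17.2% higher and 14.3% lower, and the median was 0.47 against 0.01 for all genes. At least 2-fold were 7 of the higher and 1 of the lower calls (5.78% of all genes). Of the 11 fibrillar members, 10 were higher and 0 lower. Col11a2 was at 1.42 ± 0.25, Col7a1 at 1.34 ± 0.19, Col5a3 at 1.13 ± 0.10 and Col14a1 at 1.08 ± 0.15 (adjusted p = 0.00014, 1.2e-05, 1.4e-08 and 8.5e-06). Col4a6, Col8a1 and Col15a1 were the 3 lower members, at -1.20 ± 0.27, -0.80 ± 0.23 and -0.36 ± 0.08. In jerboa, 9 were higher and 4 lower (28.3% of all genes called, 16.2% higher and 12.1% lower), 3 of the lower ones by at least 2-fold (3.84%), and 7 to 12 were called when a library was left out, 7 without foot replicate 2 at P0 or foot replicate 1 at P3 and 8 without forelimb replicate 2 at P0 or forelimb replicate 1 at P3. Of these 13 jerboa calls 5 held in every alternative other than the 2-fold minimum, and of the 29 mouse calls 25 did. Col8a1 had the largest jerboa difference, -2.26 ± 0.38 (adjusted p = 9.7e-05), and Col22a1 was higher, at 0.76 ± 0.10 (adjusted p = 6.0e-06). These contrasts reuse the libraries of the comparisons above and add no independent samples.

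For some genes whose chains join in the same molecule or fibril, the ratio of reads differed between limbs, and for others the limbs overlapped. The ratio of Col4a1 to Col4a2 reads was 1.27 ± 0.051 in jerboa foot and 1.57 ± 0.020 in jerboa forelimb at P0 (mean ± SD, n = 3), and 1.38 ± 0.031 and 1.83 ± 0.068 at P3. In mouse it was 1.31 ± 0.0095 and 1.57 ± 0.020 at P0, and 1.49 ± 0.012 and 1.93 ± 0.049 at P3. Foot was lower without overlap in all 4 comparisons (exact permutation p = 0.1 each, the smallest possible). For Col3a1 over Col1a1 the ratio was 0.387 ± 0.034 in jerboa foot and 0.762 ± 0.022 in jerboa forelimb at P0 and 0.542 ± 0.048 and 1.02 ± 0.12 at P3. In mouse it was 0.761 ± 0.092 against 1.04 ± 0.027 and 1.05 ± 0.077 against 1.48 ± 0.16, again without overlap. The ratio of Col1a1 to Col1a2, which share a molecule in fixed proportion as proteins, was 1.12 ± 0.035 in jerboa foot and 1.05 ± 0.035 in forelimb at P0 and 0.727 ± 0.018 and 0.869 ± 0.073 at P3. In mouse it was 1.37 ± 0.090 and 1.17 ± 0.023 at P0, and 0.800 ± 0.039 and 0.872 ± 0.053 at P3, where the limbs overlapped. It was lower at P3 than at P0 in all 4 tissues without overlap, a contrast in which age and the handling of reads cannot be told apart. Col6a1 over Col6a2 and Col11a1 over Col11a2 each overlapped between limbs in 3 of the 4 comparisons, the first at 0.942 ± 0.021 against 0.935 ± 0.026 in jerboa at P0, for example, and the first was apart in mouse at P3 (1.28 ± 0.022 against 1.18 ± 0.068). Of 10 pairs compared, these 5 were chosen with their values known, no ratio can pass 0.05 in groups of 3 before or after adjustment, and ratios of reads are not ratios of molecules because the genes differ in length.

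**Figure D5:**
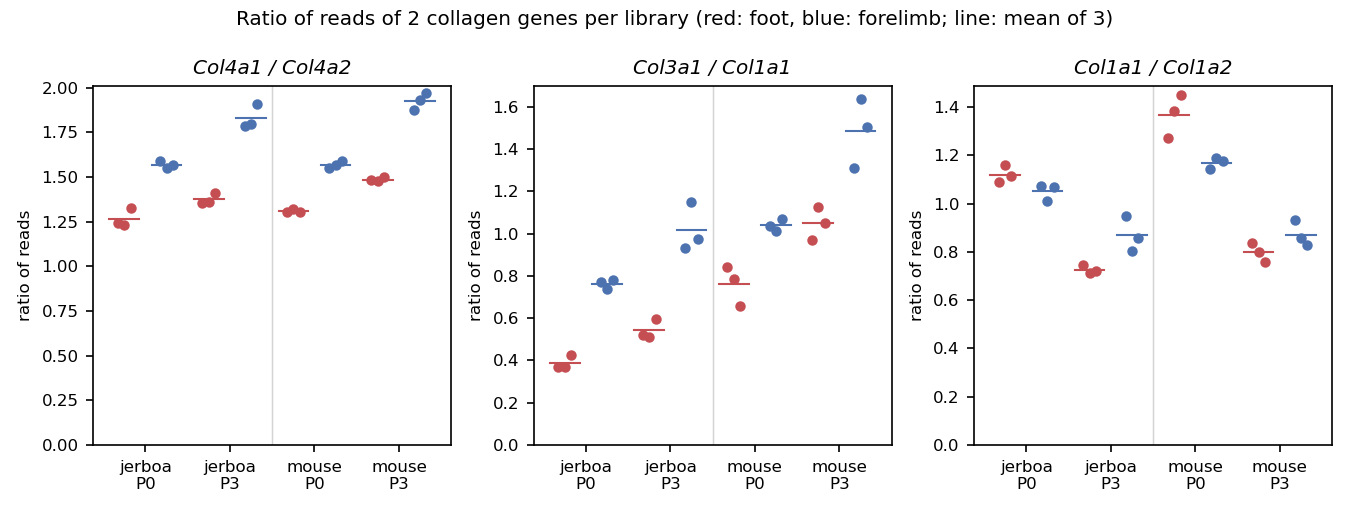
Ratio of reads of Col4a1 to Col4a2, Col3a1 to Col1a1 and Col1a1 to Col1a2 in each of 24 libraries, by species and age (red, foot; blue, forelimb; line, mean of 3 libraries; the axes start at 0). In the first and second panels the foot libraries lie below the forelimb libraries of the same species and age, for example at means of 1.27 and 1.57 for Col4a1 to Col4a2 in jerboa at P0.

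The machinery that modifies and folds collagen chains in the endoplasmic reticulum was mostly higher in foot in jerboa at both ages and in mouse at P3, and in mouse at P0 fewer than 1 in 2 of its genes were. Of 21 such genes tested, 17 rose and 2 fell in jerboa foot at P0, and 16 and 2 at P3, and 10 and 4, then 18 and 1, in mouse foot. Among all genes tested, 31.2% and 35.9% were higher in jerboa foot at P0 and P3, and 29.8% and 27.3% in mouse foot. The list's median was 0.50 and 0.60 in jerboa and 0.18 and 0.26 in mouse. Plod1, a lysyl hydroxylase, was higher in jerboa foot by 1.16 ± 0.08 and 1.24 ± 0.08, and Fkbp10, a collagen chaperone, by 1.23 ± 0.09 at P0. Creb3l1, a transcription factor for collagen genes, was higher in mouse foot by 1.39 ± 0.07 and 0.85 ± 0.07. Colgalt2, which adds galactose to collagen, was lower in foot in all 4 comparisons, at -0.46 ± 0.14 and -0.97 ± 0.14 in jerboa and -0.66 ± 0.15 and -0.80 ± 0.14 in mouse. P4ha2, a prolyl hydroxylase, was lower in mouse foot at P0 (-0.61 ± 0.08). Of 13 genes that cleave propeptides and crosslink fibrils, 6 rose and 7 fell in jerboa foot at each age, and 6 and 3, then 10 and 1, in mouse. Pcolce, an enhancer of propeptide cleavage, was higher in jerboa foot by 0.96 ± 0.08 and 0.96 ± 0.08, and Loxl2, a crosslinking enzyme, was lower by -0.73 ± 0.07 and -0.64 ± 0.07.

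Proteins that sit on collagen fibrils were mostly higher in jerboa foot. Of 17 tested, 14 rose and 2 fell in jerboa foot at P0, and 13 and 2 at P3, with medians of 0.99 and 0.94, and 7 and 4, then 9 and 4, in mouse, with medians of 0.14 and 0.41. Kera, Fmod and Thbs4 are also on the list of tendon markers. Comp, a bridge between fibrils in cartilage and tendon, was higher in jerboa foot by 3.29 ± 0.20 and 2.79 ± 0.19, and Prelp, a proteoglycan that anchors basement membrane, was lower by -2.70 ± 0.25 and -3.36 ± 0.21. Lum, the proteoglycan lumican, was lower in mouse foot by -1.92 ± 0.16 and -1.26 ± 0.16, and Fmod, fibromodulin, was higher by 1.01 ± 0.11 and 1.19 ± 0.11. Of 17 other genes of the basement membrane, 1 rose and 14 fell in jerboa foot at P0, and 2 and 12 at P3, and 2 and 12, then 2 and 9, in mouse. Lamc1 and Nid1, a laminin chain and the linker nidogen, were lower in jerboa foot by -1.34 ± 0.06 and -1.11 ± 0.07 at P0 and by -1.05 ± 0.06 and -1.21 ± 0.07 at P3. Lama2, the laminin chain of muscle, was lower in mouse foot by -0.78 ± 0.07 and -0.49 ± 0.07. Egfl6, a secreted matrix protein, was higher in foot in each comparison, from 0.99 in mouse at P0 to 2.23 in jerboa at P3.

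Receptors and collagen-degrading genes were divided. Of 8 receptor genes tested, 2 rose and 4 fell in jerboa foot at P0, and 3 and 3 at P3, and 3 and 4, then 3 and 2, in mouse. Ddr2, a receptor for fibrillar collagen, was lower in foot in all 4 comparisons, at -1.20 ± 0.08 and -1.55 ± 0.07 in jerboa and -0.36 ± 0.07 and -0.48 ± 0.07 in mouse. Itga2, an integrin chain for collagen, was lower in jerboa foot (-1.94 ± 0.22 and -2.18 ± 0.19). Of 13 genes of degradation, 5 rose and 2 fell in jerboa foot at P0, and 6 and 4 at P3, and 4 and 4, then 3 and 3, in mouse. Fap, a protease of activated fibroblasts, was higher in jerboa foot by 1.59 ± 0.09 and 1.73 ± 0.09 and lower in mouse foot at P0 by -0.70 ± 0.09. Timp1 and Timp4, inhibitors of metalloproteinases, went opposite ways in foot in all 4 comparisons; in jerboa Timp1 was at 0.97 ± 0.11 and 1.27 ± 0.11 and Timp4 at -2.99 ± 0.36 and -4.35 ± 0.41. Mmp13, a collagenase of cartilage turning to bone, was higher in mouse foot at both ages (4.75 ± 0.69 and 2.80 ± 0.64), as Col10a1 was.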

How the data were processed

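RNA of 24 libraries (3 for each of 8 groups of species, limb and age, grouped by their titles) was counted by the authors, and their deposited files hold raw read counts per feature, named by mouse transcript identifiers for both species. STAR is named, without a version, in the submitters' processing notes. Genome build, annotation and library preparation have no source among the labels, which describe reads of P0 as trimmed and those of P3 as raw. The files hold 3 count columns (either strand and each strand), and the last, with 98.4% to 99.6% of the reads assigned to a strand, was used. No row without a feature name was present. Symbols, coordinates and coding sequences came from mouse GENCODE M21 (GRCm38), which paired 17529 of 17641 features and left 112 without a symbol. The members, classes, pathway and marker lists were chosen with earlier results of these data known.

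The tests used edgeR 4.0.16 under R 4.3.3 (TMM, filterByExpr, quasi-likelihood F test, 8 group means, 16 residual degrees of freedom), adjusted by Benjamini-Hochberg over all 14448 genes tested, at a threshold of 0.05. They were run on counts simulated with 1 spread for all genes, so recovery for genes with more spread is not known. Changes of 1.25, 1.5, 2 and 4-fold in jerboa foot at P0 were recovered at 14%, 68%, 92% and 96% against forelimb. For the difference between species at P0 it was 2%, 42%, 84% and 94%. False calls were 5.59% and 4.31% of calls. CPM uses the normalised library size. Summed levels and ratios of reads were compared by two-sided exact permutation of 3 against 3 libraries. Totals were 16.7 to 54.7 M reads, and counting error weighs more beside replicate spread the lower the level and the smaller the library. Foot libraries were on average the smaller in all 4 comparisons. In jerboa the means were 18.1 against 31.8 M reads at P0 and 28.5 against 31.5 M at P3. In mouse they were 27.4 against 41.0 M at P0 and 41.6 against 49.9 M at P3. In jerboa foot at P0, 34 of 44 members lay at 10 CPM and more. Members with values for every library were the leader of each class per kilobase (mean over the mouse groups), those called with at least 2-fold and 10 CPM between limbs, and those called with at least 2-fold between species; from each pathway list up to 2 genes of smallest p per direction were eligible. Further members and genes named outside this rule were chosen after their values were seen. Alternatives were DESeq2 1.42.0 size factors and test, upper quartile scaling, no and stricter filters, limma 3.58.1 voom, either-strand reads, only the libraries compared, a replicate block, a 2-fold minimum and each library left out. Libraries of a group differed by more than sampling noise in all 24 pairs (chi-square per degree of freedom from 6.64 to 42.4), so none was counted as a copy. Same-numbered libraries of the 2 limbs did not deviate together (r from -0.086 to 0.12 over 12 pairs), so numbers were not used as pairs.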

Additional observations from a re-analysis of the deposited data

Results flagged for a closer look

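Members listed here have a tested difference of at least 2-fold between species in foot against forelimb, or between limbs in the change from P0 to P3 (edgeR's quasi-likelihood test, adjusted p under 0.05). Values are log2, jerboa minus mouse or foot minus forelimb.

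Between species at P0, the difference was -1.40 for Col4a5, -2.29 for Col4a6, 1.06 for Col7a1, 1.93 for Col8a1 and 2.07 for Col9a3. It was -5.71 for Col10a1, 1.88 for Col14a1, -1.68 for Col19a1, -1.11 for Col20a1, -2.49 for Col23a1 and 1.21 for Col24a1. The size of the Col10a1 value depended on single libraries, though its call was kept. It was -4.06 without mouse foot replicate 1 and -6.37 without mouse forelimb replicate 2. Its mouse forelimb libraries at P0 held 1, 4 and 2 reads. Col23a1 was at -3.10 without jerboa foot replicate 1.

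Between species at P3, the difference was -1.12 for Col4a1, -1.08 for Col4a2, -1.38 for Col4a5, -2.24 for Col4a6 and -1.30 for Col5a3. It was -1.95 for Col6a5, -1.16 for Col6a6, -1.67 for Col9a1, -1.50 for Col9a2 and 1.69 for Col9a3. It was -4.00 for Col10a1, 1.06 for Col14a1, -1.37 for Col17a1, -1.70 for Col20a1 and -3.27 for Col23a1. The call of Col10a1 was lost without mouse foot replicate 1 (-2.93, adjusted p = 0.050).

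Between limbs in the change with age, the jerboa difference was -1.15 for Col4a6, -1.29 for Col6a5 and -2.26 for Col8a1. The call of Col6a5 was lost without foot replicate 1 or 2 or forelimb replicate 1 of P0 (adjusted p up to 0.075), and that of Col4a6 without any 1 of 9 single libraries (up to 0.12). In mouse it was -1.20 for Col4a6, 1.13 for Col5a3, 1.03 for Col6a3, 1.34 for Col7a1, 1.13 for Col9a3, 1.03 for Col11a1, 1.42 for Col11a2 and 1.08 for Col14a1. Groups of 3 libraries are too small for a test of single libraries that stand apart.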

How the results depend on the processing

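Over 528 pairs of a member and a comparison, the alternatives other than the 2-fold minimum gave 8955 values. Of these, 8583 stayed on the same side of the threshold, 269 lost a call, 103 gained one and 0 reversed a called value. The direction of values that neither fit called was not compared. Tested against a minimum of 2-fold (glmTreat in edgeR), a stricter question that asks for large changes alone, the members called numbered 9 in jerboa and 3 in mouse at P0, 12 in jerboa and 5 in mouse at P3, and 6 and 7 for the difference between species at P0 and P3. For the change with age the same minimum left 0 in jerboa foot (3 at an unadjusted p under 0.05), 1 in jerboa forelimb, 0 in mouse foot (2 unadjusted) and 2 in mouse forelimb, and 0 for the difference between limbs in jerboa (1 unadjusted) and mouse (3 unadjusted). Leaving out single libraries gave 7 to 12 members for that difference in jerboa, against 13 with all libraries. With the replicate number as a block, the counts were 35 in jerboa and 30 in mouse at P0, 38 and 34 at P3, 26 and 28 for the difference between species, 30, 26, 29 and 27 for age in jerboa foot, jerboa forelimb, mouse foot and mouse forelimb, and 11 and 29 for the difference between limbs with age in jerboa and mouse. In 3 of 12 sets a library matched best with its own number. The cause of lost calls was not tested. Members with few reads, Col6a4, Col4a3 and, in mouse forelimb, Col10a1 among them, are limited by depth.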
